A study of Mus musculus with 16 samples.

Results

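Protein quality control inside mitochondria was followed through the mRNA of 10 genes, chosen by name: Hspd1, Hspe1, Hspa9, Trap1, Lonp1, Clpp, Clpx, Htra2, Yme1l1 and Afg3l2. All 10 were found, by gene ID, among the 24485 gene IDs of the series, and all 10 passed the filter on low values. RNA was sequenced from 2 immortalized mouse embryonic fibroblast lines on 6 days (0, 5, 9, 12, 16 and 20) after doxycycline at 1 µg/mL, which was used to induce gene rearrangement in each. The experimental line (exp) has the genotype R26M2rtTA/+;TetOcre;Sdhcfl/fl, with both Sdhc copies floxed, and the control line (ctl) is R26M2rtTA/+;TetOcre;Sdhcfl/wt, with a single floxed copy. The lines share the rtTA transactivator, the tetracycline-operated Cre, the drug and a low-glucose medium with serum. Each line gave 3 biological replicates at day 16 and 1 library on every other day, 16 in all, and since each genotype is 1 line, genotype and line cannot be told apart and p-values here reflect variation among samples of a single line.

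Most mitochondrial proteins are made in the cytosol and imported unfolded. In the matrix, mtHsp70 (Hspa9) draws them in and holds them, the Hsp60 barrel (Hspd1) with its Hsp10 lid (Hspe1) folds them, and Lonp1 and the ClpXP protease degrade what is damaged or misfolded. Proteases of the inner membrane and of the space outside it watch over the other compartments, and an unfolded protein load in the matrix can raise transcription of several of these genes through the mitochondrial unfolded protein response.

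Hspd1 and Hspe1 lie head to head, and the sequence between their start sites is shown because the results turn on how far the mRNAs of this pair kept step. It is RefSeq sequence of GRCm38.p6, a different build from that of the expression values, at chr1:55087933-55088147, 215 bases on the plus strand. The base after its end, 55088148, is the Hspe1 start, and the base before it, 55087932, is one Hspd1 start. A second annotated Hspd1 start is at 55088243. Capitals mark matches to TTCNNGAA and GAANNTTC, paired heat shock units in their 2 orders, and to TGCAAT, a C/EBP-type letter run.
Hspd1-Hspe1: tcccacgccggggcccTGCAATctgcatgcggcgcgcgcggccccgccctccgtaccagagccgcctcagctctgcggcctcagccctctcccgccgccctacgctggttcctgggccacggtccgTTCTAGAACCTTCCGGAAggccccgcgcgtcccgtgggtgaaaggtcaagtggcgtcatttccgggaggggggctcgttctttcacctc
Counted from 1 at the left end, TTCNNGAA was matched at 127 and 137 and GAANNTTC at 132, in 1 overlapping run, and TGCAAT at 17. Promoter windows, from 250 bases before to 50 after a start, were matched by symbol for 7 of the 10 genes (8 windows; none for Hspa9, Htra2 and Afg3l2), and both strands were searched. TTCNNGAA is in 8.52% of all 32851 windows and was found for 3 of the 7 genes, Hspd1, Hspe1 and, after its start, Clpp. GAANNTTC (7.86% of windows) and TGCAAT (8.4%) were found for 2 of the 7, Hspd1 and Hspe1. The Hspe1 window overlaps an Hspd1 window, so the matches of this pair to TTCNNGAA, GAANNTTC and TGCAAT are the same bases seen from both genes. The percentages count windows and the matches are given per gene, so no enrichment can be read from them. The longer TGATGCAA (0.895%) and TATAAA (13.6%) were in none of the 8 windows. CACGTG (7.15%) was found for Hspd1 and Lonp1, the NRF1 motif (4.6%) for Hspd1, GGGCGG (35.7%) for 6 of the 7 and CCAAT (37.4%) for Hspd1, Yme1l1 and Clpx. A match is a description of letters and not of a bound site.

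Sdhc, the floxed gene, encodes a membrane anchor of succinate dehydrogenase. It started at 87.8 (exp) and 90.5 FPKM (ctl) at day 0, and its lowest values were 26.5 in exp and 47.5 in ctl, both at day 16. The day 16 mean of exp was 32.0 ± 5.23 FPKM against 49.4 ± 1.66 for ctl (SD, n = 3 each), a log2 difference of -0.62 ± 0.12 (SE; limma, adjusted p = 0.0434). FPKM counts fragments per kilobase of gene, scaled to the size of the library, so that levels can be compared between genes; differences and slopes below are on log2(FPKM + 1), exp minus ctl. The libraries held 18121520 to 42486438 reads in genes, and each of the 10 genes had between 381 and 25430 reads in a library. All 10 fibroblast markers averaged at least 1 FPKM in exp and 9 of 10 in ctl, with summed levels of 3027 to 4454 and 2964 to 3434 FPKM. Endothelial markers summed to at most 1.58 FPKM, and 0 of 5 averaged 1 FPKM. Of 5 smooth muscle markers, 3 averaged at least 1 FPKM in each line, with sums of 187.9 to 674.2 FPKM in exp and 172.1 to 367.9 in ctl. The day 16 replicates had smooth muscle sums of 474.5, 674.2 and 620.7 FPKM in exp and 262.4, 367.9 and 363.8 in ctl. Macrophage markers summed to 2.63 to 6.01 FPKM in exp and 4.73 to 6.44 in ctl, with 1 of 5 averaging at least 1 FPKM in each line, Adgre1 at 0 in every library and Ptprc at 0 in every exp library.

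Some libraries stood apart before any test. At day 0 the difference between the lines depended on gene length. The median exp-minus-ctl difference was 0.36 for the shortest of 5 equal length classes of expressed genes (up to 1446 bases). It was 0.15, 0.05 and -0.01 for the next classes and -0.07 for the longest. These medians compare 1 library per line, so alone they do not tell which of the day 0 libraries departs. On the other days the shortest class had medians of -0.06 to 0.05. At day 16, replicates 2 and 3 resembled each other more than replicate 1 in each line, with r = 0.995 between exp replicates 2 and 3 against 0.952 and 0.954 with replicate 1. The chi-square per gene between the counts of replicates 2 and 3 had a mean of 9.68 and a median of 1.6 in exp, and 4.14 and 1.15 in ctl. Between replicate 1 and replicates 2 and 3 the means were 112 and 115 in exp, and 88.7 and 74.0 in ctl. Replicates 2 and 3 were kept as separate samples because the labels give them so. The counts cannot tell separate cultures from repeat preparations. If they were repeat preparations, the day 16 p-values would rest on fewer independent samples than 3 per line. All 6 mesothelial markers averaged at least 1 FPKM in exp and 2 of 6 in ctl. Their summed level was 985.9 FPKM in exp day 16 replicate 1 against 79.2 and 90.5 in replicates 2 and 3, and 97.1 to 127.0 across the ctl libraries. Exp day 20 was also high, at 878.1 FPKM, and exp days 0, 5, 9 and 12 had 273.4, 271.9, 138.0 and 270.0. Of the 6 epithelial markers, 5 reached that mean in exp and 1 in ctl, with sums of 158.5, 10.0 and 12.5 FPKM in the exp day 16 replicates, 122.5 at exp day 20, 26.1 to 63.4 on the earlier exp days and 1.92 to 2.78 in ctl. In bulk RNA, fewer cells of a kind and less RNA per cell cannot be told apart.

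Across the 16 libraries the mean level fell in the order Hspa9 (126.5 FPKM), Hspd1 (89.6), Lonp1 (55.0), Hspe1 (46.2), Htra2 (45.5), Clpp (25.1), Trap1 (24.6), Yme1l1 (21.8), Afg3l2 (18.0) and Clpx (14.2). In this order Htra2 and Clpp were the only neighbours whose ranges over the libraries were apart in both lines. The ranges of Hspa9 and Hspd1, Lonp1 and Hspe1, Hspe1 and Htra2, and Clpp and Trap1 overlapped in both lines, and those of the other neighbours in 1 line. The highest library exceeded the lowest by 1.06 to 1.55 times in ctl and by 1.19 to 3.24 times in exp, and the span was wider in exp for 8 of the 10 genes. Hspe1 (3.24 times), Hspd1 (2.32) and Hspa9 (2.28) had the widest spans in exp, and Yme1l1 and Afg3l2 had the slightly wider span in ctl.

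**Figure D1:**
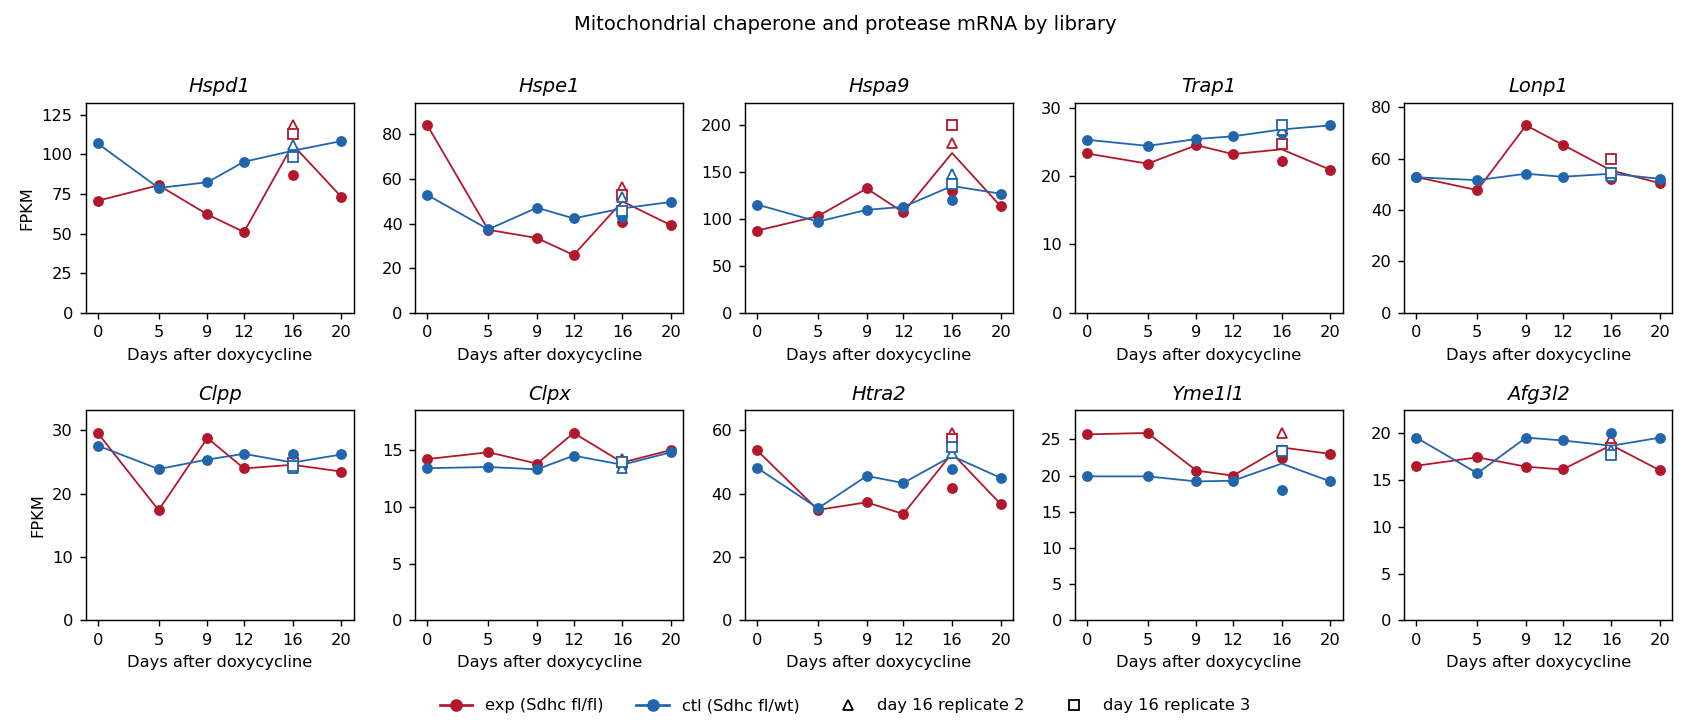
FPKM of each of the 10 genes (y axis, from 0, scaled per gene) against days after doxycycline (x axis) in the exp (red) and ctl (blue) line. Each symbol is 1 library, with day 16 replicates 2 and 3 as open symbols, and lines join the means per day; Hspd1 falls to 51.0 FPKM in exp at day 12 and reaches 118.3 in day 16 replicate 2, while Trap1 stays lower in exp on each day.

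Hspd1 (gene ID 15510, chromosome 1, 55134679 to 55145087, minus strand, mm9) encodes the subunit of the Hsp60 folding chamber. In the exp line it measured 70.7, 80.5, 62.1 and 51.0 FPKM at days 0, 5, 9 and 12, then 86.9, 118.3 and 113.0 in the day 16 replicates and 73.1 at day 20. In the ctl line the same days gave 106.9, 78.8, 82.4 and 95.3, then 102.5, 106.1 and 98.2, and 108.4 FPKM. Exp was the lower line on 4 of 6 days, by most at day 12 (-0.89), while at day 16 the replicates of the lines overlapped. The day 16 difference was 0.04 ± 0.13 (SE; limma, adjusted p = 0.891), with a 95% interval of -0.27 to 0.35. With days matched over all 16 libraries the difference was -0.29 ± 0.12 (limma, adjusted p = 0.076), which did not pass the threshold of 0.05. That comparison gives day 16 the weight of its 3 libraries per line, and it passed when exp replicate 2 (-0.34, adjusted p = 0.0361), exp replicate 3 (-0.33, adjusted p = 0.0495), or day 16 as a whole (-0.48, adjusted p = 0.0218) was left out, and with replicate 1 as the only day 16 pair (-0.44, adjusted p = 0.0145).

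Hspe1 (gene ID 15528, chromosome 1, 55144976 to 55148151, plus strand, mm9) encodes the Hsp10 lid that closes the chamber. The exp line had 84.0 FPKM at day 0, the highest value of the 16, then 37.2, 33.5 and 25.9 at days 5, 9 and 12, 40.9, 56.2 and 52.7 at day 16 and 39.2 at day 20. The ctl line had 52.8, 37.4, 47.1 and 42.3 FPKM, then 43.0, 51.8 and 45.6, and 49.7. At days 9, 12 and 20 exp was below ctl, at day 5 the lines were nearly equal and at day 16 they overlapped. The ratio of Hspe1 to Hspd1 FPKM was 1.19 at exp day 0 and lay between 0.419 and 0.571, with a median of 0.475, in the other 15 libraries. Hspe1 is the shortest of the genes, at 768 bases, and its difference of 0.66 at day 0 stands beside the median of 0.36 for short genes in that pair of libraries. Its fitted change over time was -0.53 ± 0.41 per 20 days (limma, adjusted p = 0.681). Leaving out the exp day 0 library turned this to 0.21 (adjusted p = 0.998), and removing the trend on gene length gave -0.14 (adjusted p = 0.956). The annotated ranges of Hspd1 and Hspe1 share 112 bases (chromosome 1, 55144976 to 55145087, mm9), and without a stated strand setting reads from there cannot be assigned to one or the other. Hspd1, Hspe1 and Hspa9 also have annotated pseudogenes, and how reads matching several copies were counted is not given in the sources used here, so their levels are uncertain to that extent.

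**Figure D2:**
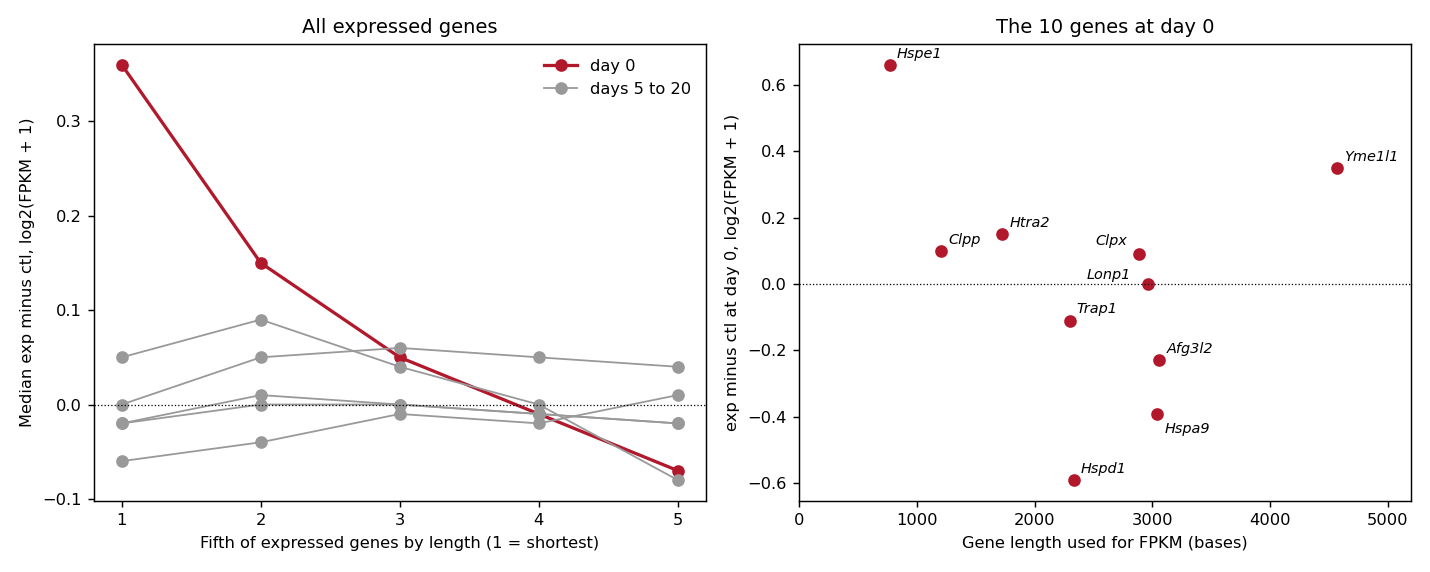
Left, the median exp-minus-ctl difference on log2(FPKM + 1) (y axis) for 5 equal classes of expressed genes by length (x axis, shortest first), with day 0 in red and the other days in grey. Right, the day 0 difference of the 10 genes (y axis) against the gene length in bases used for FPKM (x axis); day 0 medians run from 0.36 in the shortest class to -0.07 in the longest, and Hspe1, at 768 bases, has a difference of 0.66.

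Hspa9 (gene ID 15526, chromosome 18, 35097068 to 35114011, minus strand, mm9), the mtHsp70 motor of protein import, was the most abundant of the 10. It measured 87.6, 103.1, 132.6 and 107.1 FPKM at days 0 to 12 in the exp line, 130.3, 181.0 and 199.9 in the day 16 replicates and 113.5 at day 20. The ctl line gave 115.5, 97.2, 109.8 and 113.0, then 120.4, 147.9 and 137.4, and 127.0 FPKM. Exp was lower on 3 days and higher on 3, and its day 16 replicate 1 lay within the ctl range of that day. At day 16 exp averaged 170.4 ± 36.0 FPKM and ctl 135.2 ± 13.9 (SD, n = 3 each), a difference of 0.31 ± 0.17 (limma, adjusted p = 0.353). Without exp replicate 1 this became 0.49 and passed (limma, adjusted p = 0.0432). The exp slope was 0.75 ± 0.28 per 20 days (unadjusted p = 0.0168, limma adjusted p = 0.121), against 0.37 ± 0.28 in ctl (adjusted p = 1.0), and among the alternatives run it passed only without day 20 (1.13, limma adjusted p = 0.0409), the exp library of which has the high mesothelial and epithelial sums; their part in the result was not tested.

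Trap1 (gene ID 68015, chromosome 16, 4039971 to 4078410, minus strand, mm9) is the mitochondrial member of the Hsp90 family, and it was 1 of 2 genes here to pass the test of the line difference over all days. The exp libraries held 23.3, 21.8, 24.5, 23.2, 22.2, 24.8, 24.7 and 20.9 FPKM in order of day and replicate, and the ctl libraries 25.3, 24.4, 25.4, 25.8, 26.3, 26.7, 27.4 and 27.4. Exp was lower on 6 of 6 days, with log2 differences of -0.05 to -0.38 when day 16 is taken as its mean, and at day 16 every exp replicate lay under every ctl replicate. Over all days, matched, Trap1 was lower in exp, with a difference of -0.17 ± 0.04 (limma, adjusted p = 0.0105). At day 16 alone the difference was -0.16 ± 0.06 (unadjusted p = 0.0432, limma adjusted p = 0.206). The call over all days was lost without day 16, at an equal size (-0.17, adjusted p = 0.0953).

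**Figure D3:**
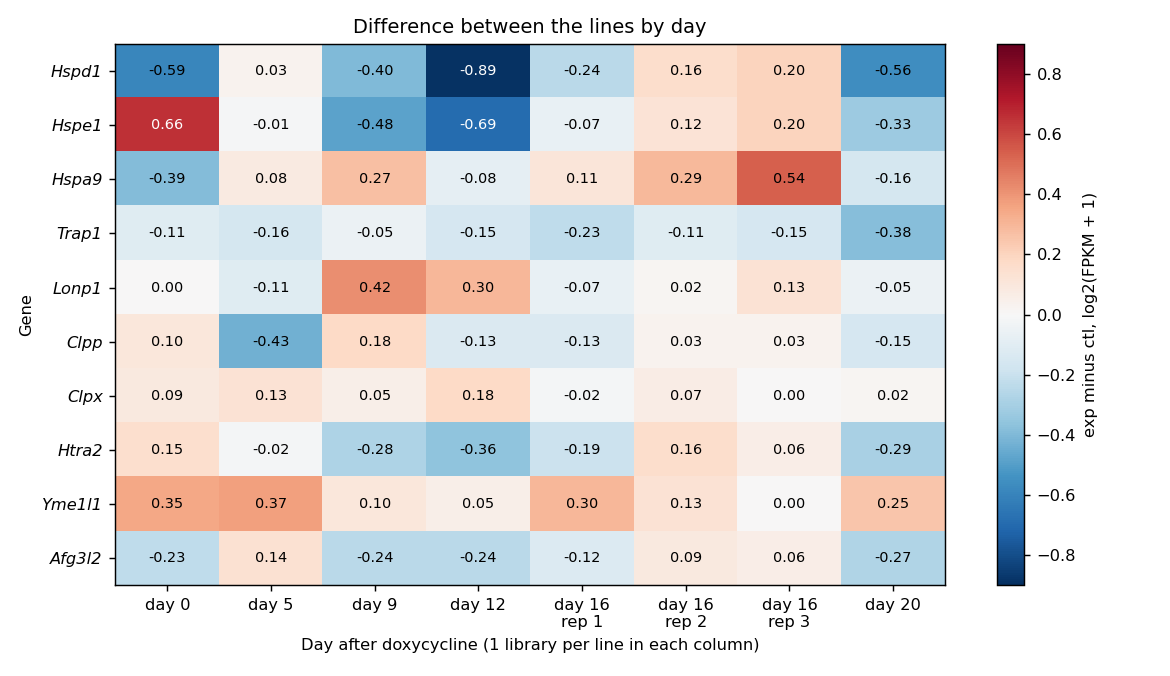
Difference between the lines, exp minus ctl on log2(FPKM + 1), as colour and number for each gene (rows) and each day or day 16 replicate (columns); each cell compares 1 library per line. The Trap1 row is negative in every column, the Hspd1 row runs from -0.89 at day 12 to 0.20 in day 16 replicate 3, and Hspe1 at day 0 (0.66) is the largest positive value.

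Among the matrix proteases, Lonp1 (gene ID 74142, chromosome 17, 56753724 to 56766326, minus strand, mm9) encodes the ATP-driven protease that clears oxidized and unassembled proteins. Its ctl libraries were the steadiest series of all, between 51.6 and 54.6 FPKM. The exp line read 52.8 and 47.7 FPKM at days 0 and 5, then 72.9 and 65.4 at days 9 and 12, 52.2, 53.9 and 59.9 at day 16, and 50.4 at day 20. Days 9 and 12 of exp, 1 library each, and day 16 replicate 3 were thus above all ctl libraries, with differences of 0.42, 0.30 and 0.13 from the matched ctl library. Single libraries carry no test, and over all days Lonp1 differed by 0.08 ± 0.06 (limma, adjusted p = 0.337). At day 16 the difference was 0.03 ± 0.07, with a 95% interval of -0.14 to 0.20.

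Clpp and Clpx encode the proteolytic chamber and the unfolding ring of a common protease. Clpp (gene ID 53895, chromosome 17, 57129687 to 57135794, plus strand, mm9) had 29.6, 17.4, 28.8 and 24.0 FPKM at days 0 to 12 in the exp line, 24.1, 24.7 and 24.9 at day 16 and 23.5 at day 20. In ctl it stayed between 23.9 and 27.6 FPKM. The exp day 5 value was the lowest of the 16, and without day 5 the exp slope of Clpp became -0.35 (limma, adjusted p = 0.0424) against -0.06 ± 0.19 with it (adjusted p = 0.866). Clpp is short, at 1207 bases. With day 5 kept and the trend on length removed, its exp slope was 0.23 (limma, adjusted p = 0.384); the slope without day 5 was not adjusted for length. Clpx (gene ID 270166, chromosome 9, 65142067 to 65178465, plus strand, mm9) was the lowest expressed gene, at 13.6 to 16.5 FPKM in exp and 13.3 to 14.8 in ctl. Exp was higher on 6 of 6 days by 0.02 to 0.18, but the difference over all days, 0.06 ± 0.04, did not pass (limma, adjusted p = 0.189). The ratio of Clpp to Clpx FPKM ranged from 1.18 at exp day 5 to 2.09 at exp day 9.

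Htra2 (gene ID 64704, chromosome 6, 83001260 to 83005267, minus strand, mm9) encodes a serine protease of the intermembrane space that can promote cell death once released. In the exp line it had 53.7 FPKM at day 0, 34.9, 37.3 and 33.6 at days 5 to 12, 41.8, 59.2 and 57.4 at day 16 and 36.7 at day 20. In the ctl line it had 48.2, 35.4, 45.6 and 43.4, then 47.8, 53.0 and 54.9, and 45.0 FPKM. The ctl line was lowest at day 5 and the exp line at day 12, and exp replicate 1 lay below every other day 16 library. The day 16 difference was 0.01 ± 0.15 (limma, adjusted p = 0.978), and its 95% interval of -0.34 to 0.36 was the second widest after that of Hspa9.

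Yme1l1 (gene ID 27377, chromosome 2, 23011889 to 23054780, plus strand, mm9) encodes the inner-membrane protease whose active side faces the intermembrane space, and it was the other gene to pass over all days. The exp libraries measured 25.7, 25.9, 20.7, 20.0, 22.4, 25.9, 23.4 and 23 FPKM in order of day and replicate, and the ctl libraries 19.9, 19.9, 19.2, 19.3, 18.0, 23.6, 23.4 and 19.2. Exp was higher on 6 of 6 days, by 0.05 to 0.37, although at day 16 the replicates overlapped. Over all days Yme1l1 was higher in exp by 0.19 ± 0.06 (limma, adjusted p = 0.0346). Several single omissions lost this call: exp replicate 2 (adjusted p = 0.0643), ctl replicate 1 (adjusted p = 0.056), day 0 or its exp library alone (adjusted p = 0.0778), day 5 (adjusted p = 0.0867) and day 20 (adjusted p = 0.0764), the last with the exp library of high mesothelial sum named above. Afg3l2 (gene ID 69597, chromosome 18, 67564421 to 67608820, minus strand, mm9), the subunit of the protease facing the matrix, lay between 16.0 and 19.4 FPKM in exp and 15.7 and 20.0 in ctl. It was lower in exp on 4 of 6 days, and its difference over all days was -0.10 ± 0.06 (limma, adjusted p = 0.179).

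Read together, the 10 genes gave no call in the replicated day 16 comparison, where 6.1% of all 12533 genes tested were called (3.1% higher and 3.01% lower). At day 16, 1 of the 10 had an unadjusted p under 0.05 in limma (Trap1), and 0 passed in limma voom on recovered reads (1 with an unadjusted p under 0.05). Their differences ran from -0.16 to 0.31, 8 of them positive, with a median of 0.02 beside -0.01 over all genes. All 10 intervals lay within -0.34 and 0.74. Over all days 2 of 10 were called, against 35.9% of 12559 genes (19.2% higher and 16.7% lower), so the share among these genes was not above the background; their median was -0.07 beside 0.01 over all genes. The difference between the lines changed over time for 0 of 10 (0.207% of all genes, 0.183% higher and 0.0239% lower; 0 of 10 with an unadjusted p under 0.05 in limma, and 0 of 10 in voom by either measure). Within exp, 0 of 10 had a slope past the threshold (4.95% of all genes, 1.36% higher and 3.59% lower, 622 in number, or 1036 with replicate number as a block; 1 of 10 with an unadjusted p under 0.05 in limma and in voom, where 0 passed). Within ctl, 0 of 10 passed in limma, as did 0 of all 12559 genes (0.0%). In limma 203 genes but 0 of the 10 had an unadjusted p under 0.05, and voom gave 0 of the 10 by either measure. Both slopes came from 1 joint fit with a shared estimate of the spread, so their SEs were equal between the lines (Hspa9, 0.28 in each). The 0 calls in ctl are therefore no measure of how steady that line was.

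**Figure D4:**
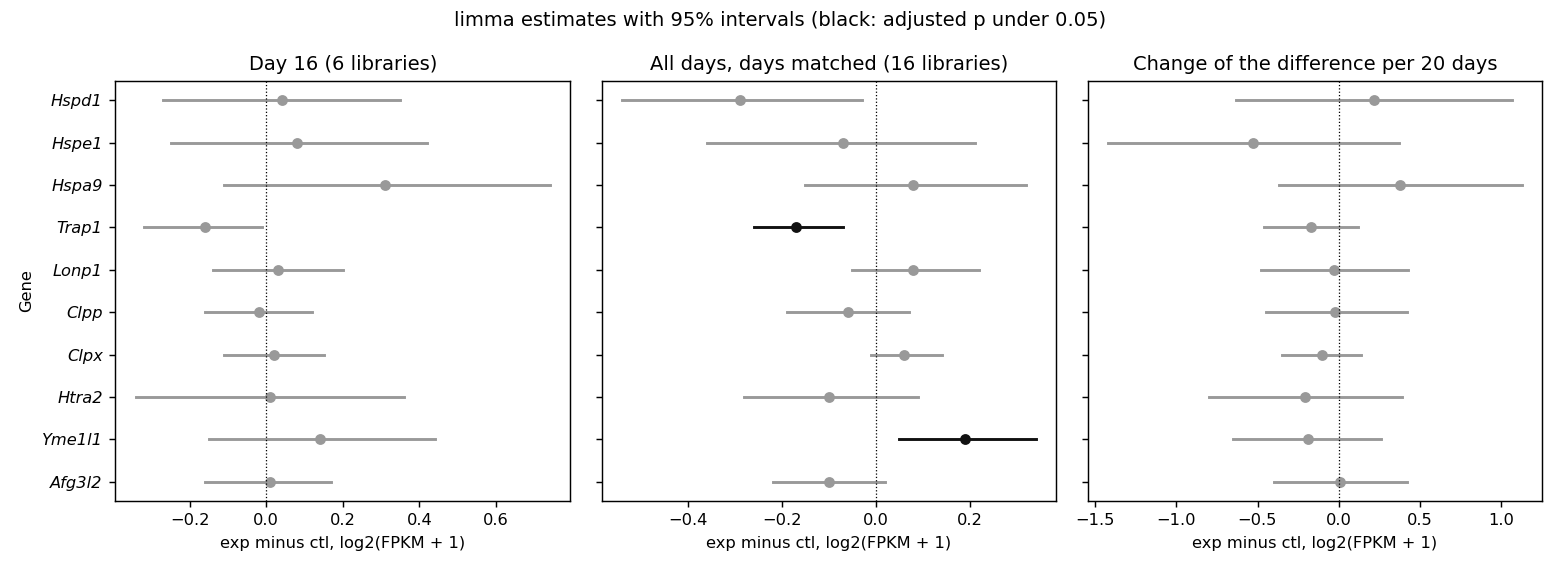
limma estimates (points) with 95% intervals (lines) on log2(FPKM + 1), exp minus ctl, for the 10 genes at day 16, over all days matched, and for the change of the difference per 20 days; x axes differ between panels. Black marks an adjusted p under 0.05, reached by Trap1 (-0.17) and Yme1l1 (0.19) over all days and by no gene in the other panels.

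The exp day 16 replicates differed most among themselves for 4 genes. Relative to replicate 1, on the plain FPKM scale, the mean of exp replicates 2 and 3 was 1.33-fold for Hspd1, 1.33-fold for Hspe1, 1.46-fold for Hspa9 and 1.4-fold for Htra2. The corresponding ctl ratios were 0.996, 1.13, 1.18 and 1.13, and Yme1l1 had the largest in ctl, 1.3, with 1.1 in exp. Trap1, Lonp1, Clpp, Clpx and Afg3l2 stayed between 1.03 and 1.11 in exp. Among the exp day 16 replicates, those with the higher chaperone levels had the low mesothelial and epithelial sums and the higher smooth muscle sums. Exp day 9 also had a mesothelial sum (138.0 FPKM) below that of replicate 1 (985.9). There Hspd1 (62.1 against 86.9 FPKM), Hspe1 (33.5 against 40.9) and Htra2 (37.3 against 41.8) were lower than in replicate 1. Hspa9 was slightly higher (132.6 against 130.3). The part of the marker differences in the chaperone levels was not tested. Of the 10 genes, exp minus ctl was positive for 2, Hspa9 and Yme1l1, within the replicate 1 pair, as shown by the map of differences by day.

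Over the 16 libraries, centred within line, the genes whose pattern was most like that of Hspd1 were Cct8 (r = 0.98), a subunit of the cytosolic chaperonin, Atic (0.97), an enzyme of purine synthesis, Mybbp1a (0.96), Ncl (0.96), the nucleolar protein nucleolin, and Mpp6 (0.96). These correlations describe 9744 genes with a mean of at least 5 FPKM, and the libraries share line, day and depth. Cct8 ranged from 70.1 to 105.5 FPKM in exp and from 88.4 to 108.1 in ctl. Among the 10 genes, Hspa9 and Htra2 had r = 0.74 each, Afg3l2 0.72 and the partner Hspe1 0.55, and Lonp1 (-0.37) and Clpx (-0.38) were the least alike. The value for Hspe1 rests on the exp day 0 library: without it, over 15 libraries, Hspe1 had r = 0.93, the highest of the other genes in the set, followed by Htra2 (0.84), Hspa9 (0.78) and Afg3l2 (0.71), and Cct8 (0.99), Ncl (0.97) and Atic (0.97) stayed among the 5 genes most like Hspd1, while Mybbp1a and Mpp6 did not.

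The remaining genes of mitochondrial protein quality control gave as few calls. At day 16, 0 of 9 co-chaperones and other matrix chaperones, 0 of 12 tested proteases and peptidases (of 13 listed), 0 of 4 scaffolds of inner-membrane proteases and 0 of 19 import genes passed. The lowest adjusted p among them was that of Dnlz, a zinc-finger partner of mtHsp70, at 0.117, with an unadjusted p of 0.0147. Over all days, Dnlz (0.30 ± 0.06, adjusted p = 0.0018) and the mtHsp70 co-chaperone Dnaja3 (0.14 ± 0.05, adjusted p = 0.0366) were higher in exp, with 0 of 9 lower (limma). Over all days 19.2% of all genes were called higher and 16.7% lower. In the protease list 4 of 12 were lower and 0 higher: Pitrm1, which degrades presequence peptides (-0.37 ± 0.08, adjusted p = 0.00361), Nln (-0.26), Xpnpep3 (-0.24) and Pmpcb, a subunit of the presequence-processing peptidase (-0.22). Among scaffolds, the prohibitin Phb was lower (-0.19 ± 0.05, adjusted p = 0.0186), 1 of 4. Of the 19 import genes 1 was higher (Timm44, 0.15) and 1 lower (Tomm40, -0.33). List medians over all days were within -0.03 and 0.03, beside 0.01 for all genes.

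In the exp line 3 of 19 import genes fell over time, beside 3.59% of all genes: Timm8b (-1.04 ± 0.27 per 20 days, adjusted p = 0.0397), Tomm7 (-0.81 ± 0.19, adjusted p = 0.032) and Tomm20 (-0.69 ± 0.15, adjusted p = 0.0225; limma), and 0 of 19 rose. Their exp day 0 levels, 156.0, 41.3 and 35.7 FPKM, were the highest of each series, and ctl day 0 had 70.2, 27.8 and 22.4. Without the exp day 0 library the slopes were -0.16, -0.26 and -0.30, with adjusted p of 0.727, 0.542 and 0.383. With the trend on length removed, Tomm20 still passed (-0.69, adjusted p = 0.0344), and Timm8b (-0.49, adjusted p = 0.106) and Tomm7 (-0.49, adjusted p = 0.0978) did not. Leaving out day 16 also lost all 3 calls, with limma adjusted p of 0.202 for Timm8b, 0.158 for Tomm7 and 0.178 for Tomm20. When a library or day was left out, Timm8b was not called in 11 of 13 fits, Tomm7 in 4 and Tomm20 in 3.

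The regulators of the mitochondrial stress response were the list with calls at day 16. There 2 of 16 were higher in exp and 0 lower, against 3.1% of all genes higher: Atf4, the transcription factor translated when eIF2 is phosphorylated, and Eif2ak2, an eIF2 kinase that senses double-stranded RNA and is itself induced by interferon. For Atf4 exp averaged 281.0 ± 13.8 FPKM and ctl 192.6 ± 24.5 (SD, n = 3 each; 0.55 ± 0.11, limma adjusted p = 0.0427), and for Eif2ak2 they averaged 31.3 ± 1.62 and 23.1 ± 0.662 (0.42 ± 0.06, limma adjusted p = 0.0185). Leaving out exp or ctl replicate 2 or 3 lost each call, with limma adjusted p of up to 0.148 for Atf4 and 0.11 for Eif2ak2, and without a filter on low values Atf4 was at 0.0595. Atf5, a factor linked to induction of mitochondrial chaperones, measured 111.6 ± 18.2 FPKM against 59.0 ± 13.7 (0.92 ± 0.21, limma adjusted p = 0.0609). It was not called in 12 of 14 alternatives, with limma adjusted p of up to 0.193 when a library was left out. It passed with replicate number as a block (limma adjusted p = 0.00947) and without exp replicate 1 (0.0332). Over all days 6 of 16 were higher in exp, beside 19.2% of all genes: Trib3 (1.64 ± 0.23), Atf5 (0.96 ± 0.16), Ddit3 (0.49 ± 0.11), Atf4 (0.48 ± 0.06), Ppp1r15a (0.35 ± 0.07) and Hsf2 (0.24 ± 0.04), with adjusted p of 0.00382 or less. These calls held in each of 23 alternatives. Another 4 of 16 were lower, beside 16.7% of all genes: Myc (-0.64 ± 0.17), the heat shock factor Hsf1 (-0.18), and the eIF2 kinases Eif2ak3 (-0.18) and Eif2ak1 (-0.15). The list median over all days was 0.14 beside 0.01 for all genes. At day 0, Atf4 was already at 225.9 (exp) and 166.2 FPKM (ctl), and Trib3 at 19.5 and 7.03, in single libraries. Eif2ak2 went the other way at day 0, at 20.7 FPKM in exp and 24.1 in ctl. Its difference between the lines changed by 0.67 ± 0.14 per 20 days, which did not pass (limma, adjusted p = 0.0897).

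Chaperones of the other compartments were set beside them. Over all days, where 16.7% of all genes were lower in exp and 19.2% higher, 6 of 21 cytosolic chaperones were lower, Hsph1 (-0.61 ± 0.18, adjusted p = 0.0182; limma), Cct4, Cct3, Hspa4, Hsp90ab1 and Cct8, and 1 was higher, Dnajb1 (0.21); at day 16, 0 of 21 passed. The list median was -0.11. In the endoplasmic reticulum 2 of 15 were lower, a share below that of all genes: the lectin chaperone Canx (-0.35 ± 0.07, adjusted p = 0.00246; limma) and Creld2 (-0.25), 0 were higher, and 0 of 15 passed at day 16. Of the 28 genes called over all days in the lists beside the 10 genes, 15 were called in every alternative. Those lost in at least 1 were Dnaja3, Timm44, Tomm40, Pmpcb, Phb, Eif2ak1, Eif2ak3, Hsf1, Cct4, Cct8, Hsp90ab1, Dnajb1 and Creld2, with limma adjusted p of up to 0.304 (Dnaja3) when 1 library or day was left out.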

How the data were processed

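RNA was sequenced from 16 libraries with a TruSeq v2 mRNA kit, per the labels' protocols. The authors deposited 1 table per library, whose unit is FPKM for each gene. The submitters' processing notes name mm9 and Bowtie2 2.2.3; which program counted the reads, against which annotation and with which strand setting is not given in the sources used here. Gene IDs were matched to symbols through RefSeq (24416 of 24485), and positions are from GENCODE vM1 on mm9, 1-based.

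FPKM steps within a library correspond to single reads, so whole reads were recovered for 18966 genes, each value within 0.02 read (largest distance 0.00067; on simulated data 99.33% of 18547 genes were returned). The share of values that came out whole follows from that rule. Recovered totals give the depth, and the gene lengths used came from the same step.

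Tests used limma 3.58.1 in R 4.3.3, with statmod 1.5.0, two-sided, on log2(FPKM + 1), keeping genes that averaged at least 1 FPKM in the libraries fitted, with trend and robust empirical Bayes and Benjamini-Hochberg adjustment over all genes (threshold 0.05). This scale understates changes of low genes. The fits were line at day 16 (6 libraries); day as a factor with line, without and with line by numeric day; and slopes per 20 days within each line in 1 joint fit. The fits were tested on simulated data with the same spread setting, fixed in advance, for every gene and library. The real day 16 libraries differed from that, with replicate 1 set apart from replicates 2 and 3 in each line. The shares recovered may therefore be too high for the real data. Of 1.5-fold changes, 78.3% were recovered at day 16 and 98.5% over all days. The share was 45.5% for the exp slope, 40.0% for the ctl slope and 5.8% for the change over time. Of 2-fold changes over time, 61.8% were recovered, so modest changes can be missed there. Same-numbered day 16 replicates deviated together across the lines (r = 0.381, 0.272 and 0.333). Unlike numbers also deviated together between replicates 2 and 3 (exp 3 with ctl 2, r = 0.398; exp 2 with ctl 3, r = 0.209), so the check mainly sets replicate 1 apart from the others. The main fits therefore left the samples unpaired, and the replicate number entered only as a block in an alternative. With the block, limma called 1023 genes at day 16 against 765 in the main fit. Adjusted p at day 16 went from 0.353 to 0.123 for Hspa9 and from 0.206 to 0.126 for Trap1 (limma), and neither passed.

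Other alternatives were pseudocounts of 0.1 and 5, no filter or a mean of at least 5 FPKM, median-of-ratios rescaling, limma without trend and robust, and leaving out replicates or days. A fit with limma voom to recovered reads, leaving out exp day 0 alone (also for the likeness to Hspd1), and removing a smooth trend on gene length were chosen after seeing the data.

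All 10 genes were named, with Sdhc. From each other list the 3 genes with the smallest p at day 16 and for the change over time were open to naming, with every called regulator; other genes named because they were called (over all days, or by exp slope) were chosen after their values were seen. The 10 genes and the lists were chosen with earlier results of these data known.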

Additional observations from a re-analysis of the deposited data

How the results depend on the processing

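Over the 10 genes and all alternatives, 952 of 1060 values kept their direction and their side of the threshold, 7 lost and 7 gained a call, and 94 changed sign, 0 of them as a call. The changes of call are given with the results above, the replicate block changed no call among the 10 genes, and the cause of each change was not tested. Limits are that 5 of 6 days have 1 library per line and that the day 0 difference between the lines depends on gene length. A further limit is that intervals for the change over time were as wide as -1.42 to 0.37 (Hspe1). Of all genes, the day 16 comparison called 493 at a mean FPKM of at least 5, with 197 (without ctl replicate 3) to 1599 (without exp replicate 1) when a library was left out (0 to 1 of the 10 genes). The change over time called 2 without day 16 replicates 2 and 3, 40 with the length trend removed, and 0 (without day 16) to 35 (without exp replicate 1) when a library or day was left out. The exp slope called 1036 with the replicate block, 310 with the length trend removed and 9 (without day 0) to 1381 (without day 5) on leaving out (0 to 1 of the 10). The median-of-ratios rescaling moved the median exp slope of all genes by 0.11 and the split of higher and lower calls from 171 and 451 to 263 and 157. The ctl slope called 1 with the replicate block, 1 without day 16 replicates 2 and 3 and 0 to 2 on leaving out; over all days 1 to 3 of the 10 were called on leaving out. The values whose sign changed follow, all on log2(FPKM + 1). Without day 16 replicates 2 and 3, these were for the change over time Hspd1 -0.13, Afg3l2 -0.13, and for the exp slope Lonp1 -0.0063, Clpx 0.035, Htra2 -0.33, Afg3l2 -0.00039, and for the ctl slope Hspe1 -0.013, Clpp 0.0027, Yme1l1 -0.095, and for the difference over all days Hspa9 -0.028. With median-of-ratios rescaling, these were for the change over time Lonp1 0.047, Clpp 0.056, and for the exp slope Trap1 0.094, Clpp 0.054, Clpx 0.11. With the length trend removed, these were for the change over time Lonp1 0.022, Clpp 0.25, and for the exp slope Trap1 0.10, Clpp 0.23, Clpx 0.080. With the replicate block, these were for the exp slope Lonp1 -0.0067, Clpx 0.031, Htra2 -0.22, and for the ctl slope Hspe1 -0.16, Htra2 -0.018, Yme1l1 -0.058. Leaving out a library or day gave, for the day 16 difference, Hspd1 -0.044 to 0.18, Hspe1 -0.0078 to 0.22, Lonp1 -0.029 to 0.068, Clpp -0.043 to 0.019, Htra2 -0.079 to 0.17, Afg3l2 -0.028 to 0.057. Leaving out a library or day gave, for the change over time, Hspd1 -0.28 to 0.52, Hspe1 -1.01 to 0.21, Hspa9 -0.055 to 0.70, Lonp1 -0.19 to 0.068, Clpp -0.24 to 0.25, Htra2 -0.47 to 0.016, Afg3l2 -0.19 to 0.16. Leaving out a library or day gave, for the exp slope, Hspd1 -0.14 to 0.66, Hspe1 -0.99 to 0.64, Trap1 -0.11 to 0.082, Lonp1 -0.15 to 0.13, Clpp -0.35 to 0.34, Clpx -0.041 to 0.10, Htra2 -0.44 to 0.58, Afg3l2 -0.071 to 0.20. Leaving out a library or day gave, for the ctl slope, Hspe1 -0.12 to 0.43, Lonp1 -0.0036 to 0.062, Clpp -0.11 to 0.092, Yme1l1 -0.057 to 0.15, Afg3l2 -0.045 to 0.26. Leaving out a library or day gave, for the difference over all days, Hspe1 -0.18 to 0.013, Hspa9 -0.056 to 0.15.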
